A study of Mus musculus with 22 samples.

Results

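The clustered protocadherins were taken as every row of the 2 count tables whose symbol names a gene of the Pcdha, Pcdhb or Pcdhg cluster. The rule found 45 of 26379 symbols: 3 alpha members, 21 beta members and 21 gamma members. Of these, 44 were in the data of the keratinocytes, 43 in the data of the tissues and 42 in both. The alpha members were Pcdha9 and Pcdha12 in the keratinocyte table and Pcdhac2 in the tissue table, so alpha is described only by its few counts. Other genes of these clusters were not analysed here.

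The series examined mice that carry a transgene for Vgll3, a transcriptional cofactor, under the K5 (keratin 5) promoter, which is active in basal keratinocytes, the proliferating layer of the epidermis. RNA was sequenced from nonlesional skin and whole blood of 8 mice, 4 labelled VGLL3_TG (transgenic) and 4 labelled WT (wild type), with 2 females and 2 males in each group. It was also sequenced from 6 primary keratinocyte cultures of the tails of 23-day-old littermates, 3 VGLL3_TG and 3 WT, harvested after 3 days of culture. All 3 transgenic cultures came from males, and the wild-type cultures came from 2 females (replicates 1 and 2) and 1 male (replicate 3). The 8 mice gave both skin and blood and were matched for age, but neither their ages nor the background strain is stated in the labels, and no treatment is named. Keratinocyte libraries held 33412093 to 51877437 counts on genes, skin libraries 19600892 to 40678246 and blood libraries 11197265 to 18235483.

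Protocadherins are cadherin-related adhesion proteins of the cell surface. The alpha, beta and gamma clusters lie side by side on one chromosome and are best known in neurons, where each cell uses its own subset of members and the combination gives it an identity that neighbouring branches can recognise by binding of like to like. In the alpha and gamma clusters each member has its own variable first exon, which encodes the extracellular, transmembrane and proximal intracellular parts and is spliced to constant exons shared by the cluster. Beta members are encoded by a single exon and lack the constant intracellular domain. The C-type members (here Pcdhac2, Pcdhgc3, Pcdhgc4 and Pcdhgc5) stand at the downstream end of their cluster and are regulated apart from the others. Which promoters are used depends on CTCF and cohesin, which bring promoters to distant enhancers, on DNA methylation and on Smchd1, a silencing protein.

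All 45 members matched the GENCODE M21 annotation of mm10 and lay on the plus strand of chromosome 18 between 36997880 and 37841873, with the beta genes from 37294812 to 37524479 and the gamma genes from 37661793 to 37841873. Of the annotated exonic bases of the gamma members, 31.47% to 66.79% were shared with another gene, mostly through the constant exons, and reads there cannot be assigned to one member by position. Levels per kb below therefore use only the exonic bases that no other gene shares, 1570 to 4614 for gamma and 2801 to 8695 for beta members. Members also resemble each other: 1.8% to 11.99% of the 50-base windows of the beta first exons, and 0% to 39.51% of those of the gamma first exons, recur in another gene. Counts of single members carry that uncertainty, since the setting for reads that map to several genes is not given in the sources used here.

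The libraries were first checked against their labels. In the cultures, Vgll3 reached 225, 191 and 192 CPM (counts scaled to a common library size, after adjusting library sizes by the TMM method) in wild type and 499, 478 and 405 in transgenic. Its log2 fold change was 1.19 (SE 0.10, n = 3 and 3, adjusted p = 0.00072, edgeR quasi-likelihood test with Benjamini-Hochberg adjustment). In skin it reached 72.9, 92.2, 43.6 and 49.0 CPM in wild type and 98.7, 777, 122.6 and 92.1 in transgenic, which did not pass (log2 fold change 1.81, SE 0.59, n = 4 and 4, edgeR adjusted p = 0.24). The cultures had 42272 to 46483 summed CPM of 8 basal keratinocyte markers and 26.5 to 61.7 of 9 fibroblast markers, the highest in transgenic culture 3. Skin had 6728 to 11898 summed CPM of the basal keratinocyte markers, and blood had 1074 to 3832 of 9 leukocyte markers and 151 to 334 of the basal keratinocyte markers.

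In the keratinocyte cultures, some members of the beta cluster and some of the gamma cluster were higher in transgenic than in wild-type cells. Of 44 members in the table, 29 passed the filter on low counts and were tested, and 12 of them passed the test (edgeR quasi-likelihood test, adjusted p under 0.05). All 12 were higher in the transgenic cultures, by 1.78-fold to 3.66-fold, and none was lower. Over all 14451 genes tested, 15.2% passed in either direction and 7.11% passed as higher. The beta cluster gave 7 of its 13 tested members and the gamma cluster 5 of 16.

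The median log2 fold change of the tested members was 1.28 for beta and 0.55 for gamma, beside 0.01 over all genes tested. All 13 tested beta members and 15 of 16 tested gamma members had a positive log2 fold change, as did 51.9% of all genes. The tested members are not all members, because the filter asked for about 0.261 CPM in 3 libraries and a gene could meet that in the transgenic cultures alone. In all 3 wild-type cultures 19 of the 29 exceeded that level, and 8 of these 19 passed the test as higher (5 of 6 beta and 3 of 13 gamma members). The other 4 that passed, Pcdhb14, Pcdhb20, Pcdhgb8 and Pcdhgc5, exceeded it in all 3 transgenic but not all 3 wild-type cultures. With no filter on low counts, all 44 members entered the fit, and 11 passed as higher and none as lower, beside 9.06% of all genes. The medians were then 1.11 for the 21 beta and 0.56 for the 21 gamma members.

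**Figure D1:**
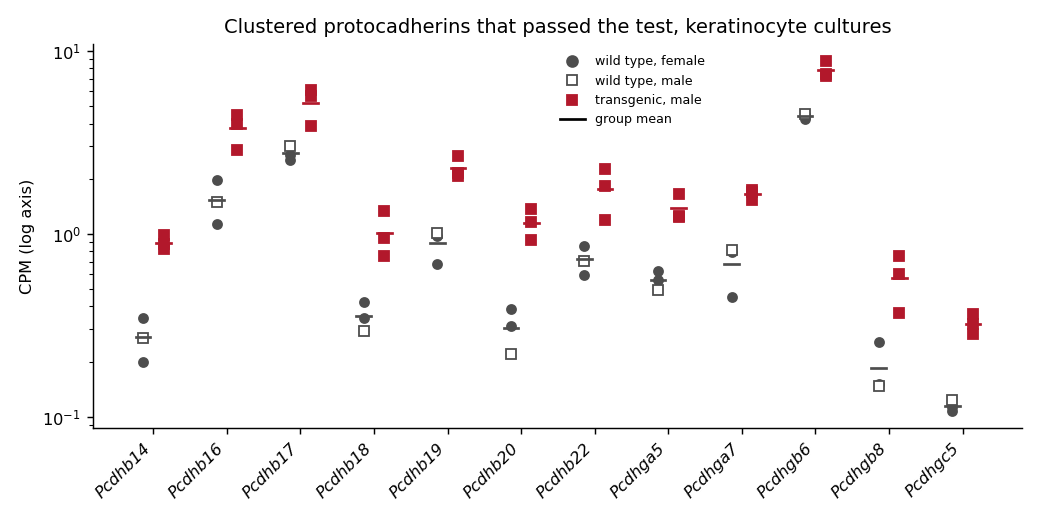
CPM (log axis) of the 12 clustered protocadherins that passed the test, in each of the 6 keratinocyte cultures, with bars at the group means. In each of the 12 members every transgenic culture lies above every wild-type culture, the male one included. The 12 were picked by a test on these same cultures.

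Pcdhb20 had the largest log2 fold change among the beta members. Its level was 0.387, 0.312 and 0.221 CPM in wild-type cultures 1 to 3 and 1.36, 1.16 and 0.924 CPM in transgenic cultures 1 to 3. The groups did not overlap, and the log2 fold change was 1.87 (SE 0.30, 95% interval 1.18 to 2.56, edgeR adjusted p = 0.0073). It is a low level: the 6 libraries held 9 to 49 counts each, and not all wild-type cultures met the filter on low counts.

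Pcdhb14, with 8695 exonic bases the longest beta member in the annotation, was at 0.344, 0.199 and 0.270 CPM in wild type and at 0.874, 0.823 and 0.980 CPM in transgenic cultures. Its transgenic cultures differed little among themselves and all exceeded the wild-type ones (log2 fold change 1.69, SE 0.28, edgeR adjusted p = 0.0081). Pcdhb18 was at 0.344, 0.426 and 0.295 CPM in wild type and at 0.754, 1.33 and 0.942 CPM in transgenic cultures, again without overlap (log2 fold change 1.51, SE 0.31, edgeR adjusted p = 0.019).

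Pcdhb19 stood at 0.968, 0.681 and 1.01 CPM in wild type against 2.65, 2.07 and 2.15 CPM in transgenic cultures. Every transgenic value exceeded every wild-type one, and the log2 fold change was 1.36 (SE 0.22, edgeR adjusted p = 0.0074). Pcdhb22, the last beta gene, read 0.861, 0.596 and 0.712 CPM in wild type and 2.26, 1.82 and 1.19 CPM in transgenic cultures, with transgenic culture 3 the lowest of its group (log2 fold change 1.25, SE 0.29, edgeR adjusted p = 0.031).

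Pcdhb17 and Pcdhb16 were the beta members with the most counts in keratinocytes. Pcdhb17 was at 2.54, 2.70 and 3.02 CPM in wild type and at 6.09, 5.64 and 3.88 CPM in transgenic cultures. It had the smallest fold change of the 7, at a log2 value of 0.91 (SE 0.19, edgeR adjusted p = 0.022), and transgenic culture 3 was the nearest to wild type. Pcdhb16 was at 1.96, 1.13 and 1.498 CPM in wild type and at 4.43, 4.00 and 2.87 CPM in transgenic cultures, again with transgenic culture 3 the nearest to wild type (log2 fold change 1.28, SE 0.25, edgeR adjusted p = 0.017).

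The beta members that passed all lay in the downstream stretch of the cluster, a division made after seeing the values. Of the 9 members from Pcdhb14 to Pcdhb22, 8 were tested and 7 passed, with a median log2 fold change of 1.43 and a median SE of 0.29. Of the 12 members from Pcdhb2 to Pcdhb13, 5 were tested and none passed, with a median of 1.12 and a median SE of 0.45. The sign of these 5 carries little weight, because Pcdhb4 alone met the filter on low counts in all wild-type cultures while Pcdhb7, Pcdhb11 and Pcdhb13 met it in all transgenic but not all wild-type ones. In the same stretch the untested Pcdhb10 was at 0.124 ± 0.085 CPM in wild type and 0.054 ± 0.052 CPM in transgenic cultures (SD, n = 3 each), on 21 counts in all. The upstream members that were tested had 65 to 124 counts over the 6 libraries and the downstream ones 84 to 943. Whether the 2 stretches differ in their response was not tested.

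**Figure D2:**
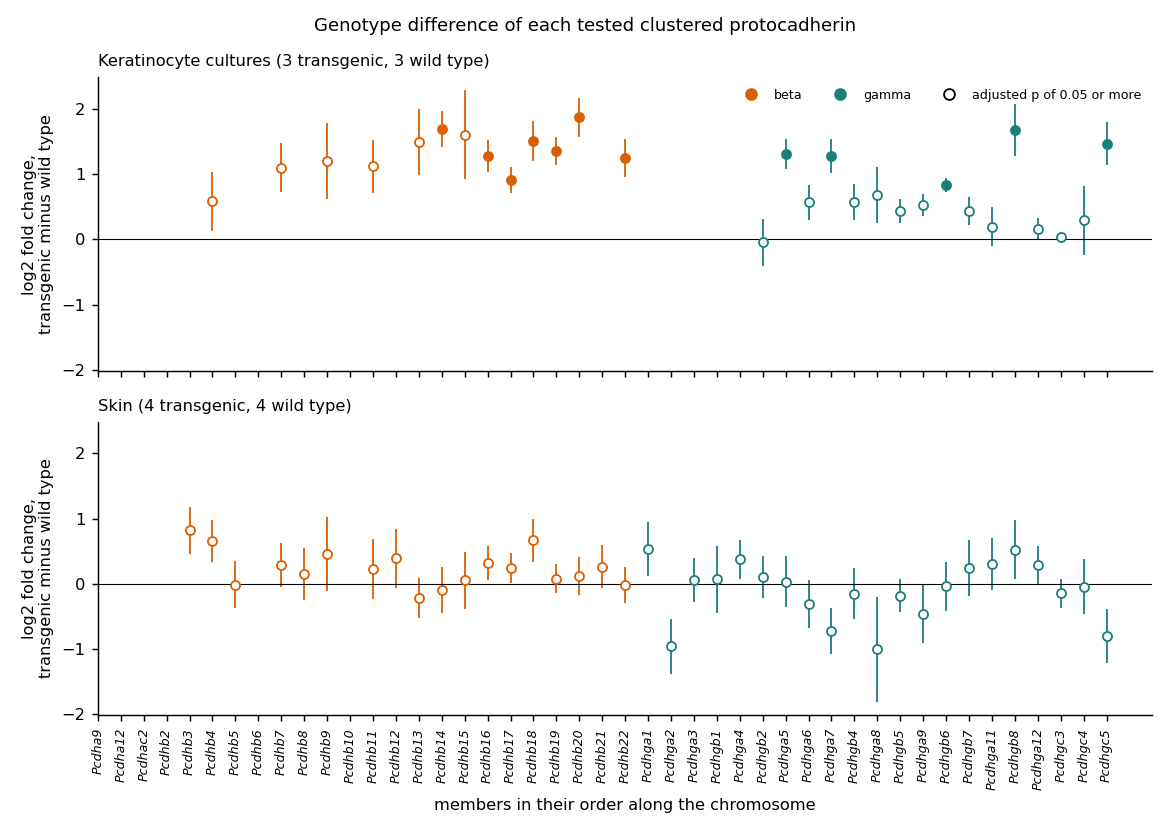
Log2 fold change (transgenic minus wild type) of every tested clustered protocadherin, in order along the chromosome, for keratinocyte cultures (top) and skin (bottom), with bars of 1 SE. Filled points passed at an adjusted p under 0.05: 12 in keratinocytes, all above 0, and none in skin, where points lie on both sides of 0; members without a point were not tested.

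Among the 11 A-type gamma members, 7 were tested and Pcdhga5 and Pcdhga7 passed. Pcdhga5 was at 0.559, 0.624 and 0.491 CPM in wild type and at 1.24, 1.25 and 1.64 CPM in transgenic cultures. Here transgenic culture 3 was the highest of its group, and the log2 fold change was 1.31 (SE 0.23, edgeR adjusted p = 0.011). Pcdhga7 was at 0.452, 0.794 and 0.810 CPM in wild type and at 1.69, 1.53 and 1.73 CPM in transgenic cultures (log2 fold change 1.28, SE 0.26, edgeR adjusted p = 0.018). The other 5 tested A-type members had log2 fold changes of 0.16 to 0.68, and the median of the 7 was 0.57.

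Of the 7 B-type gamma members, 6 were tested and Pcdhgb6 and Pcdhgb8 passed. Pcdhgb6 had the smallest p of all members. It was at 4.22, 4.45 and 4.49 CPM in wild type, within a narrow range, and at 8.74, 7.43 and 7.28 CPM in transgenic cultures, for a log2 fold change of 0.83 (SE 0.11, 95% interval 0.57 to 1.09, edgeR adjusted p = 0.0041).

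Pcdhgb8 had far fewer counts, at 0.151, 0.255 and 0.147 CPM in wild type and at 0.603, 0.369 and 0.754 CPM in transgenic cultures. It rested on 6 to 40 counts per library (log2 fold change 1.67, SE 0.40, edgeR adjusted p = 0.031). GENCODE M21 annotates Pcdhgb8 as a polymorphic pseudogene, not as a protein-coding gene. Pcdhgb7, the B-type member with the next most counts after Pcdhgb6, did not pass: it was at 1.23, 2.07 and 1.74 CPM in wild type and at 2.35, 2.24 and 2.19 CPM in transgenic cultures. Its groups did not overlap, but the wild-type cultures spread widely, and the 95% interval of its log2 fold change was -0.07 to 0.94 (edgeR adjusted p = 0.22).

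Of the 3 C-type gamma members, 1 passed and none had a negative log2 fold change. Pcdhgc3, the member with the highest level per kb in these cells, was at 25.9, 30.0 and 28.0 CPM in wild type and at 29.9, 27.2 and 28.7 CPM in transgenic cultures. The transgenic values lay within the wild-type range, with a log2 fold change of 0.03 (SE 0.07, 95% interval -0.14 to 0.21, edgeR adjusted p = 0.80). Pcdhgc4 was at 0.473, 0.284 and 0.295 CPM in wild type and at 0.784, 0.397 and 0.188 CPM in transgenic cultures, a spread too wide to place it (95% interval -0.96 to 1.54).

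Pcdhgc5 passed, at 0.108, 0.113 and 0.123 CPM in wild type and 0.362, 0.284 and 0.320 CPM in transgenic cultures (log2 fold change 1.47, SE 0.33, edgeR adjusted p = 0.026). It had the fewest counts of the 12, with 4 or 5 counts in each wild-type culture and 10 to 17 in each transgenic one. Of the 50-base windows of its annotated first exon, 15.21% recur in other genes, more than for any other member that passed. It passed in none of the 6 fits that left out 1 culture.

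The alpha members were close to absent. Pcdha9 had 11 counts over the 6 cultures and Pcdha12 had 7, which gave 0 to 0.255 summed CPM per culture. Neither was tested. The 15 untested members had at most 50 counts each over the 6 cultures and together 155 counts in wild type and 277 in transgenic cultures.

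Summed over its 21 members, the beta cluster stood at 10.01, 7.80 and 8.94 CPM in wild-type cultures 1 to 3 and at 22.4, 21.7 and 16.6 CPM in transgenic cultures 1 to 3. The means were 8.92 ± 1.10 (SD, n = 3) and 20.3 ± 3.16 (SD, n = 3), a ratio of 2.27. The 21 gamma members summed to 41.5, 47.3 and 44.5 CPM in wild type and to 56.2, 53.0 and 54.0 CPM in transgenic cultures, a ratio of 1.22. Both clusters were thus higher in each transgenic culture than in any wild-type culture. No test was run on sums over members.

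The gamma sum divides into Pcdhgc3 and the rest. Without Pcdhgc3, the other 20 gamma members summed to 16.5 ± 0.83 CPM in wild type and 25.8 ± 0.48 CPM in transgenic cultures (SD, n = 3 each), a ratio of 1.56. The A-type members alone gave a ratio of 1.52 and the B-type members 1.59, against 1.03 for the C-type. Pcdhgc3 made up 62.3%, 63.3% and 62.9% of the gamma counts in wild-type cultures and 53.2%, 51.4% and 53.0% in transgenic ones. The beta share of all beta and gamma counts was 19.4%, 14.2% and 16.7% in wild type and 28.5%, 29.1% and 23.6% in transgenic cultures. These shares were not tested, and the share of Pcdhgc3 falls wherever the other gamma members are higher and its own level is not.

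**Figure D3:**
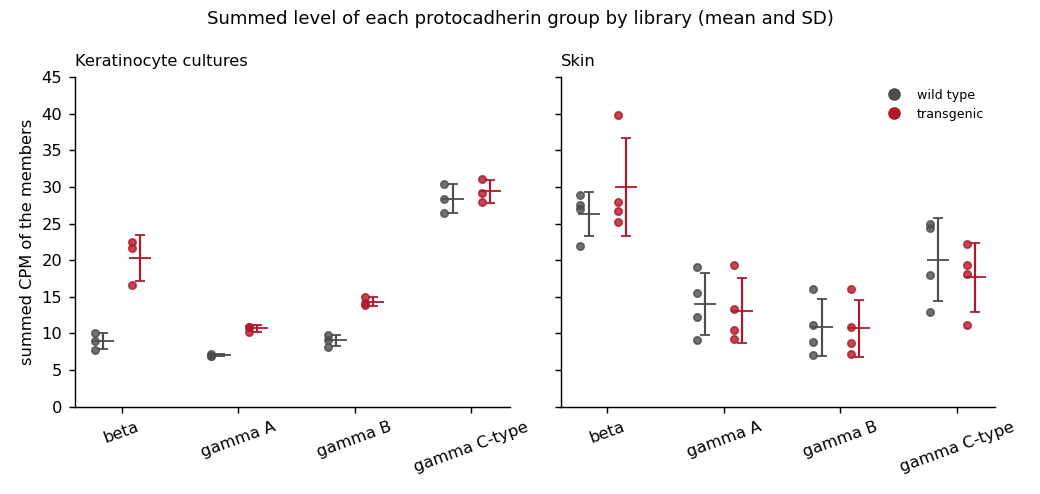
Summed CPM of the beta, gamma A, gamma B and gamma C-type members in each library, with the group mean and SD, for keratinocyte cultures (left, n = 3 per group) and skin (right, n = 4 per group). In keratinocytes the beta, gamma A and gamma B sums of the transgenic cultures lie above all wild-type ones while the C-type sums overlap; in skin all groups overlap.

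The cultures' sexes were not balanced, so sex and genotype can be only partly told apart in every keratinocyte count above. With sex as a covariate, 1 of 29 members passed (Pcdhb20, log2 fold change 2.35, edgeR adjusted p = 0.046), beside 3.88% of all genes. Of the log2 fold changes in that fit 28 of 29 were positive, 16 had an unadjusted p under 0.05, and the medians were 1.32 for beta and 0.64 for gamma. Over all 14451 genes in that fit, 50.7% were positive and 2995 had an unadjusted edgeR p under 0.05. Because all 3 transgenic cultures were male, the genotype effect in the fit with sex rests on the single male wild-type culture. Comparing the 3 transgenic cultures with that culture alone, over 35 members, was a choice made after seeing the data. It is nearly the same contrast, so its likeness to the fit with sex is no second support. This comparison has 1 wild-type culture, so only its effect sizes are given here. There 34 of 35 values were positive, with medians of 1.30 for beta and 0.57 for gamma, on the assumption that the single wild-type culture varies like the others. The male wild-type culture lay below every transgenic culture in 12 of the 12 members that passed. Those 12 were picked by a test that used this culture, so that count cannot tell sex from genotype. It lay within, below or above the range of the 2 female ones in 3, 4 and 5 of them.

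Of the 29 tested members, 19 had every transgenic culture above every wild-type culture, beside 17.7% of all genes. The number that passed depended on single cultures: it was 7 without transgenic culture 1, 6 without transgenic culture 2, 5 without wild-type culture 2 and 7 without wild-type culture 3. It was 8 without wild-type culture 1 and 12 without transgenic culture 3, while 5.86% to 25% of all genes passed in these 6 fits. Pcdhb14, Pcdhb19, Pcdhb20, Pcdhga5 and Pcdhgb6 passed in all 6. Of these, Pcdhb14 and Pcdhb20 met the filter on low counts in all transgenic but not all wild-type cultures.

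Markers of other cell types were set beside these values. The summed CPM of the neuron markers followed genotype, from 91.9 to 105 in wild type and from 170 to 213 in transgenic cultures. Values were at hand for 4 of the 10 listed genes, and nearly all of the sum was Tubb3, a neuronal beta-tubulin, at 96.3 CPM in wild type and 193 CPM in transgenic cultures (log2 fold change 1.0, SE 0.09, edgeR adjusted p = 0.00093). Elavl3, Elavl4, Snap25, Nefl, Nefm and Gap43 were not analysed here in the cultures. For the adipocyte markers, 2 of 6 had values and their sum was lower in transgenic cultures, from 0.596 to 1.72 CPM against 3.21 to 4.81 CPM. The sums of the basal and suprabasal keratinocyte, fibroblast, melanocyte, Schwann cell, hair shaft, endothelium, mural, muscle, erythroid and leukocyte markers overlapped between the groups, the Schwann cell sums barely (251.6 to 291.7 CPM in transgenic, 290.8 to 335.3 CPM in wild type). Single markers within these lists passed the test in edgeR, beside 15.2% of all genes, 7.11% as higher. Lyz2 of the leukocyte list, Rgs5 of the mural list, Padi3 and Msx2 of the hair list and Emcn of the endothelium list were higher in transgenic cultures, by 3.99, 3.49, 1.23, 0.88 and 1.56 on the log2 scale. Tek of the endothelium list and Mbp and Pmp22 of the Schwann cell list were lower, at -1.10, -0.45 and -1.75. Of the 8 basal keratinocyte markers, Col17a1, Itga6 and Trp63 were higher in transgenic cultures by 0.65, 0.82 and 0.28 on the log2 scale (edgeR adjusted p = 0.031, 0.034 and 0.036). In all, 6 of the 8 were positive. Krt5 and Krt15 were negative, at -0.32 and -0.41, and did not pass (edgeR adjusted p = 0.089 and 0.42). The part of these other transcripts in the protocadherin differences was not tested. In such bulk samples, fewer cells of a type and less RNA per cell cannot be told apart.

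The other genes of the pathway did not share one direction in keratinocytes, and their counts are to be read against the 15.2% of all genes that passed, 7.11% as higher. Of 4 tested non-clustered protocadherins, which are single genes outside the clusters, Pcdh7 was higher in transgenic cultures (75.4 ± 1.38 CPM in wild type, 179 ± 62.9 CPM in transgenic, SD, n = 3, log2 fold change 1.25, edgeR adjusted p = 0.017). Pcdh1, an epithelial protocadherin, was lower, with a log2 fold change of -0.27 (edgeR adjusted p = 0.047), and the other 2 did not pass. Of the 21 regulators of promoter choice, 1 was higher and 4 lower, with a median log2 fold change of -0.04. Dnmt3a, a de novo DNA methyltransferase, was higher by 0.41, while Smc1a, a cohesin core subunit, Pds5b, a cohesin regulator, and Dnmt1, the maintenance DNA methyltransferase, were lower by -0.23, -0.30 and -0.25 on the log2 scale (edgeR adjusted p = 0.0091, 0.0081, 0.014 and 0.022).

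Of the 26 genes that process protocadherins or act below them, 2 passed as higher and none as lower. They were Ncstn, a subunit of gamma-secretase, by 0.19, and Prkca, a protein kinase C, by 0.19 on the log2 scale. The counts in this paragraph are also to be read against the 15.2% of all genes that passed, 7.11% as higher. Among 21 tested classical and desmosomal cadherins and their partners, Dsc3 (desmocollin 3) and Cdh13 were higher, by 0.38 and 0.66, and Pkp2 (plakophilin 2) and Ctnnd1 (p120 catenin) were lower, by -1.31 and -0.32. Of 5 tested large cadherins of the Fat, Dachsous and Celsr families, Fat2 and Celsr1 were higher, by 0.90 and 0.42, and none was lower. With sex as a covariate, Pcdh1, Pkp2 and Fat2 still passed and the other genes named in these lists did not. Of the 6 fits that left out 1 culture, Prkca missed the threshold in 6, Pcdh7, Ncstn and Cdh13 in 5, Pcdh1, Dnmt1 and Ctnnd1 in 4, Pds5b in 3, and Smc1a, Dnmt3a and Dsc3 in 1. Fat2, Celsr1 and Pkp2 passed in all 6.

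The flanks of the clusters gave a further comparison, added after seeing the data. Of 33 annotated protein-coding genes within 0.5 Mb of the clusters or between them, 22 were tested in keratinocytes. None passed as higher and 1, Pcdh1, passed as lower, beside 15.2% of all genes in either direction. Their median log2 fold change was 0.00 and their range -0.35 to 0.36. The 29 tested members had a median of 1.10 and ran from -0.05 to 1.87, so the ranges overlapped. Whether the flanks differ from the members was not tested.

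In skin, no clustered protocadherin differed between the genotypes by the test. Of 43 members in the table, 39 were tested and 0 passed (edgeR quasi-likelihood test with sex as a covariate), beside 0.0115% of all 17342 genes, and 0 members had an unadjusted p under 0.05. DESeq2, which passed 6.15% of all genes, and limma-voom also passed 0 members. The median log2 fold change was 0.23 for 18 beta and -0.04 for 21 gamma members, beside -0.01 over all genes, with 14 of 18 and 10 of 21 positive. The groups failed to overlap for 1 of 39 members (Pcdhb3), beside 7.4% of all genes. The median SE was 0.36, so differences of moderate size were not detectable. For Pcdhb20, the 95% interval of the log2 fold change in skin was -0.55 to 0.79.

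Pcdhb3 was at 0.431, 0.426, 0.692 and 0.432 CPM in transgenic skin and at 0.346, 0.159, 0.265 and 0.348 CPM in wild-type skin. Every transgenic value was the higher, on 4 to 17 counts per library, with a 95% interval of the log2 fold change of -0.02 to 1.66 (edgeR adjusted p = 0.30). Pcdhb4 and Pcdhb18 had log2 fold changes of 0.66 and 0.67 with overlapping groups (edgeR adjusted p = 0.33 and 0.34). Pcdhb17, the beta member with the highest level in skin, was at 5.29, 7.95, 5.25 and 5.45 CPM in transgenic and at 5.53, 5.88, 3.50 and 5.40 CPM in wild-type skin. Those groups overlapped (log2 fold change 0.24, 95% interval -0.29 to 0.77). Pcdhb22 and Pcdhb14 had log2 fold changes of -0.02 (95% interval -0.67 to 0.63) and -0.09 (95% interval -0.91 to 0.73).

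Pcdhga2, the member with the smallest p in skin, was at 0.546, 0.341, 0.285 and 0.216 CPM in transgenic and at 0.890, 0.993, 0.212 and 0.669 CPM in wild-type skin, where wild-type mouse 3 was the lowest of all (log2 fold change -0.96, SE 0.42, edgeR adjusted p = 0.30). Pcdhga7, which was higher in transgenic cultures, was at 1.15, 0.653, 1.34 and 0.890 CPM in transgenic and at 2.08, 2.22, 1.30 and 1.26 CPM in wild-type skin. These groups overlapped and the difference did not pass (log2 fold change -0.73, 95% interval -1.53 to 0.08, edgeR adjusted p = 0.33). Pcdhgc5 had a log2 fold change of -0.80 (95% interval -1.76 to 0.16, edgeR adjusted p = 0.35).

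Pcdhgc3 also had the highest level per kb in skin, at 21.6, 16.8, 18.5 and 10.6 CPM in transgenic and at 23.6, 23.5, 11.9 and 16.98 CPM in wild-type skin. It spread widely within each group, and its log2 fold change was -0.14 (95% interval -0.66 to 0.37). Pcdhgb6 was at 7.07, 2.44, 4.15 and 2.56 CPM in transgenic and at 4.55, 5.80, 2.52 and 3.99 CPM in wild-type skin (log2 fold change -0.04, 95% interval -0.91 to 0.83). Pcdhga5, Pcdhgc4 and the alpha member Pcdhac2 showed no separation either: the first 2 had log2 fold changes of 0.03 and -0.05, and Pcdhac2 had 0 to 16 counts per library and was not tested.

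Summed over members, skin beta was at 25.2, 39.8, 26.7 and 28.0 CPM in transgenic mice 1 to 4 and at 26.9, 28.9, 22.003 and 27.5 CPM in wild-type mice 1 to 4. Gamma was at 57.5, 37.2, 43.7 and 27.6 CPM in transgenic and at 51.6, 59.5, 29.2 and 39.1 CPM in wild-type mice. The ranges overlapped for both, with ratios of the means of 1.14 for beta and 0.93 for gamma. The skin libraries differed in hair follicle content: the summed CPM of 15 hair shaft and follicle markers was 25.4, 3961, 34.3 and 32.1 in transgenic and 7857, 31.8, 51369 and 13658 in wild-type mice. With a score of these markers as a further covariate, 0 of 39 members passed and the medians were 0.28 for beta and -0.31 for gamma.

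None of the lists of related genes had a member that passed in skin, where 0.0115% of all genes passed. The tested genes were 10 non-clustered protocadherins, 21 regulators, 26 processing and signalling genes, 22 classical and desmosomal cadherins and 12 large cadherins, with median log2 fold changes of -0.45, -0.31, -0.09, -0.34 and -0.28. In the same order 2, 0, 10, 2 and 4 of them were positive, beside 49.1% of all genes. Of the 33 genes flanking the clusters, 23 were tested in skin and none passed, again beside 0.0115% of all genes.

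The genotype effects in cultures and skin were compared in 1 fit, as the keratinocyte difference minus the skin difference over the 14 libraries. That fit held 1 sex term shared by cultures and skin, whereas the keratinocyte differences above had no sex term. Its values are therefore not the plain difference of the 2 effects given above. Pcdhgb7, for example, was -0.33 there, beside 0.43 in cultures and 0.24 in skin. How far the signs depend on the shared term was not tested. Of 40 tested members 0 passed in edgeR, beside 0.726% of all genes, and 0 in limma-voom. An unadjusted edgeR p under 0.05 was found for 9 of the 40, beside 2896 of all 16802 genes. Of those 9, Pcdhb10, named after its values were seen, was negative, at -2.47 (SE 1.11), on 21 counts in the cultures. The difference was positive for 31 of 40 members, with a median of 0.81 for beta and 0.52 for gamma on the log2 scale, beside 0.06 over all genes. Pcdhb20 came nearest, with a difference of 1.99 (SE 0.42, 95% interval 1.07 to 2.91, edgeR adjusted p = 0.055). Pcdhb19 differed by 1.17 (95% interval 0.50 to 1.84, edgeR adjusted p = 0.11), Pcdhga7 by 1.78 (95% interval 0.71 to 2.85, edgeR adjusted p = 0.12) and Pcdhgc5 by 1.93 (95% interval 0.67 to 3.18, edgeR adjusted p = 0.14).

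The result for the difference hung on the skin libraries. Without transgenic mouse 2, Pcdhb20 passed at 2.32 (edgeR adjusted p = 0.018) and Pcdhgc5 at 2.48 (edgeR adjusted p = 0.034). These were 2 of 39 tested members, beside 3.69% of all genes in that fit. Without wild-type mouse 2, Pcdhb20 passed at 1.96 (edgeR adjusted p = 0.028). It was 1 of 40 tested members, beside 6.03% of all genes, so neither count sets the members apart from other genes.

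Levels of the members in the 2 wild-type settings are given per kb of own exonic sequence, each tissue scaled within itself and prepared with a different RNA reagent, so the ratios carry that difference. Pcdhgc3 led in both, at 8.27 CPM per kb in keratinocytes and 5.62 in skin, followed in both by Pcdhgb6 at 1.71 and 1.64. Next came Pcdhgb7 in keratinocytes (0.648) and Pcdhb17 in skin (1.09). All 21 beta members had a higher mean in skin than in keratinocytes, by a median of 3.46-fold. Of the 21 gamma members 15 did, and the median ratio of skin to keratinocytes over all 21 gamma members was 2.35.

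Over the 42 members in both tables, the log2 levels per kb had a Pearson r of 0.77 and a Spearman rho of 0.69, a description of points that share libraries and exon lengths. Pcdhga3, chosen after its values were seen, had the largest ratio, 35.5-fold higher in skin, on 30 counts over the 6 cultures. The summed wild-type beta level was 8.92 ± 1.10 CPM in keratinocytes (SD, n = 3) and 26.3 ± 3.00 CPM in skin (SD, n = 4), and the summed gamma level 44.4 ± 2.88 and 44.9 ± 13.4 CPM.

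**Figure D4:**
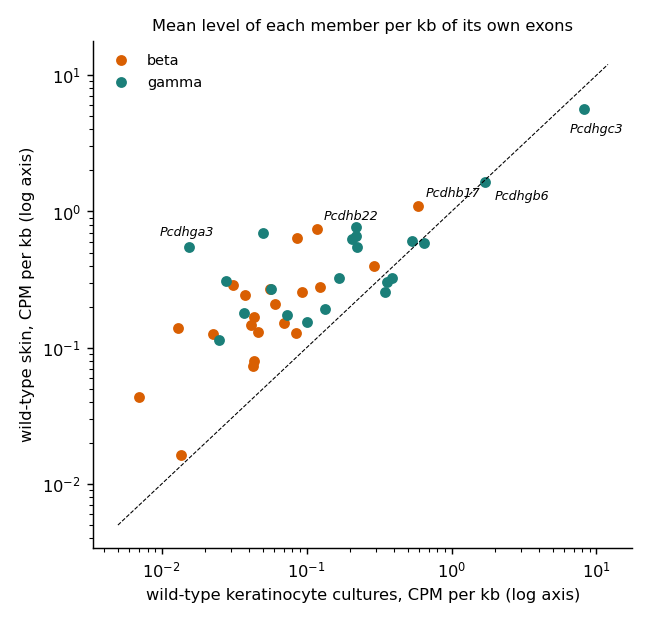
Mean wild-type level of each of 42 members per kb of its own exons in keratinocyte cultures (n = 3, x axis, log) and skin (n = 4, y axis, log), with a dashed line of equality. Pcdhgc3 lies at the top right in both, and all 21 beta members lie above the line.

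In blood the clusters had few counts. The 7 erythroid markers had 408052 to 1272290 summed CPM there, a sum that TMM scaling can bring above the library total. That leaves less depth for other genes, and its part in the low counts was not tested. The 8 libraries together held 80 counts on the 43 members, 12 on beta, 68 on gamma and 0 on the alpha member, with 2 to 18 counts per library. None of the members passed the filter on low counts, so none was tested. With no filter, 21 members had a count above 0, 0 passed in edgeR and 0 had an unadjusted p under 0.05.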

How the data were processed

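RNA-seq libraries (Illumina TruSeq stranded mRNA, HiSeq) were made from nonlesional skin, whole blood and primary keratinocytes, with a different RNA reagent for each, per the labels' protocols. The authors deposited unnormalized read counts for each gene symbol, in 1 table for the tissues and 1 for the keratinocytes. STAR 2.5.2, HTSeq 0.6.1, DESeq2 and the build mm10 are named in the submitters' processing notes; the annotation, strand and multi-mapping settings behind them are not stated there. The members and gene lists were chosen with earlier results of these data known.

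Groups followed the labels. Each tissue was fitted alone in edgeR 4.0.16 (R 4.3.3), comparing genotypes by its quasi-likelihood test: TMM normalization, filterByExpr by group, Benjamini-Hochberg adjustment over all genes tested, and a threshold of 0.05, with sex in the skin and blood fits. Sex was left out for keratinocytes because all 3 transgenic cultures were male. The difference between keratinocytes and skin was a contrast over 14 libraries with 1 sex term shared by both. SE of a log2 fold change was derived from its F statistic. CPM used TMM-scaled total counts within each tissue. Exon lengths and positions came from GENCODE M21. Named members were those that passed, the 3 with the smallest p and the 3 with the highest CPM of each cluster, and the C-type members; of each list of related genes, up to 4 that passed. Alternatives were other scalings, filters, covariates, DESeq2 1.42.0, limma-voom 3.58.1 and leaving out each library. Fits were tested on simulated data. All replicate pairs differed by more than counting noise (chi-square per degree of freedom at least 4.51). Replicates were separate animals, or cultures from separate animals, per the labels. Depth was 11197265 to 51877437 counts per library, and counting error limits members under about 10 counts.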

Additional observations from a re-analysis of the deposited data

Results flagged for a closer look

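In skin groups of 4 mice, values of the named members, of the summed groups and of Vgll3 were checked for a single mouse far from the other 3. Of 40 such groups 4 were picked out; chance picks out about 1 in 20. Pcdhb17 was highest in transgenic mouse 2, at 7.95 CPM against 5.25 to 5.45 CPM in the others. Pcdhb3 was highest in transgenic mouse 3, at 0.692 CPM against 0.426 to 0.432 CPM. Pcdhgc5 was highest in wild-type mouse 1, at 0.741 CPM against 0.428 to 0.476 CPM. Vgll3 was highest in transgenic mouse 2, at 777 CPM against 92.1 to 122.6 CPM, and the same mouse had the highest summed beta level of all 8 skin libraries. Its hair marker sum was 3961 CPM, against 25.4 to 34.3 CPM in the other transgenic mice. Its gamma sum of 37.2 CPM lay within their range of 27.6 to 57.5 CPM. Whether these values are linked was not tested.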

How the results depend on the processing

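In keratinocytes, 12 members passed. The count was 12 under RLE size factors, without TMM scaling and under the other filter on low counts, and 11 with no filter, in DESeq2 and in limma-voom. In these fits 9.06% to 18.2% of all genes passed. It was 1 with sex as a covariate, beside 3.88% of all genes, and 5 to 12 when each culture was left out, beside 5.86% to 25%. The fit of the male cultures alone has 1 wild-type culture, so its count is not given. The gamma median was 0.64 with sex and 0.44 to 0.70 with each culture left out. None of the 12 was negative under any alternative. The difference between keratinocytes and skin gave 0 to 2 members with each library left out, while 0.0755% to 6.03% of all genes passed. In skin and blood 0 members passed under every alternative, though DESeq2 passed 1067 genes in skin against 2 in edgeR. The summed gamma level without C-type members was 25.0 CPM in transgenic and 16.04 in wild-type keratinocytes, and 23.8 and 24.8 in skin.

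Of the values whose sign changed, none had an adjusted p under 0.05; the cause was not tested. In skin without TMM scaling, Pcdhb22 was 0.069, Pcdhgb6 0.018 and Pcdhgc4 0.037. Pcdhga5 was -0.085 in limma-voom and -0.39 with the hair score, where Pcdhgc4 was 0.40. With each library left out, skin values ran from -0.47 to 0.092 for Pcdhb14, -0.20 to 0.15 for Pcdhb22, -0.33 to 0.25 for Pcdhga5, -0.38 to 0.21 for Pcdhgb6 and -0.38 to 0.21 for Pcdhgc4. In keratinocytes they ran from -0.022 to 0.078 for Pcdhgc3 and -0.33 to 0.71 for Pcdhgc4, and for the difference from -0.44 to 0.075 and -0.27 to 0.86.

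Animal numbers are shared between genotypes in the tissues but did not pair the mice: correlations of same-numbered mice were 0.08, -0.47, -0.11 and 0.09 in skin and 0.38, 0.00, -0.23 and -0.11 in blood. With the replicate block, 0 members passed in skin and 0 in blood, Pcdhga5 was -0.059, and the medians were 0.20 for beta and -0.12 for gamma. No keratinocyte numbers pair cultures. Depth limits the 15 untested keratinocyte members and all blood members.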
